A study of Mus musculus with 4 samples.

Results

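The genes described here encode the proteasome of mouse liver: the subunits of its core and its cap, its activators and inhibitor, the factors that assemble it, and Nfe2l1, the transcription factor best known for driving proteasome genes. They were chosen by gene symbol, 49 symbols in all, out of 56748 genes in the deposited table, and each symbol matched 1 row. The list was drawn up after the differences between JIB-04 and untreated libraries had been seen, so the set was in effect selected on that contrast. Its fold changes, p-values and counts of calls are therefore a description of these 4 livers and not an independent test. All 49 genes passed the filter on low values, a mean of at least 1 FPKM over the 4 libraries, which left 10819 genes of the table.

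The animals were NSG mice, an immunodeficient strain without mature B, T or natural killer cells, whose genotype is labelled WT. Livers of 2 mice given JIB-04 at 55 mg/kg by oral gavage, in 5 doses spread over a twice-weekly schedule, were compared with livers of 2 untreated mice. JIB-04 is a small molecule that inhibits Jumonji histone demethylases. The untreated mice received no vehicle, so gavage and compound cannot be told apart, and age and sex are unstated in the sources used here. Each library came from a separate mouse, and the series concerns CYP3A4 and targeted therapies for lung cancer. Reads recovered from the table numbered 43283827 and 36469514 in JIB-04 1 and 2, against 36793474 and 36878654 in untreated 1 and 2. Levels are FPKM, fragments per listed gene length and sequencing depth. The listed lengths, such as 899 bases for Psmb5 and 3660 for Psmb9, were not checked against the transcripts expressed. Rankings, shares and sums across genes are therefore approximate.

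The proteasome degrades proteins tagged with ubiquitin. Its barrel-shaped core, the 20S particle, stacks rings of alpha subunits, which form the gate, on rings of beta subunits, of which Psmb5, Psmb6 and Psmb7 carry the active sites. The cap, the 19S particle, has a base of ATPases that unfold substrates and a lid that removes ubiquitin. Interferon and immune cells favour the alternative active-site subunits Psmb8, Psmb9 and Psmb10, the immunosubunits, which alter the peptides made for antigen presentation. Nfe2l1 is held in the endoplasmic reticulum membrane and degraded when proteasome capacity is sufficient. When capacity falls short, it is extracted, cut and moved to the nucleus, where it activates proteasome genes through antioxidant response elements.

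RefSeq promoters of build GRCm38.p6 were matched by symbol to 42 of the 49 genes. The sequences below are those of the 3 genes with the highest log2 changes, Nfe2l1, Psma5 and Psma1, and of the catalytic subunits Psmb5 and Psmb6, whose promoters hold the core of the antioxidant response element. Each is written 5′ to 3′ on the gene's strand and ends at the transcription start, except that of Psmb5, which ends 30 bases before it. Capitals mark a CCAAT box, in either orientation (CCAAT or ATTGG), or the response element core TGACNNNGC; the ETS-type site CCGGAAG had no match in the bases shown. Nfe2l1 lies at chr11:96829969-96830218 (minus strand) and has 5 promoters in the table, of which the most upstream is shown. Psma5 lies at chr3:108256676-108256925 (plus strand), Psma1 at chr7:114276117-114276366 (minus strand), Psmb5 at chr14:54618026-54618245 (minus strand) and Psmb6 at chr11:70525107-70525356 (plus strand).
Nfe2l1: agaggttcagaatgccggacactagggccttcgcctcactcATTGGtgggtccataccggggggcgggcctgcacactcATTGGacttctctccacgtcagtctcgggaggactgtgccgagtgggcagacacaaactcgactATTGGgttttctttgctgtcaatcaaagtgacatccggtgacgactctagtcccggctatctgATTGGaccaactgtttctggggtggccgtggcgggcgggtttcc
Psma5: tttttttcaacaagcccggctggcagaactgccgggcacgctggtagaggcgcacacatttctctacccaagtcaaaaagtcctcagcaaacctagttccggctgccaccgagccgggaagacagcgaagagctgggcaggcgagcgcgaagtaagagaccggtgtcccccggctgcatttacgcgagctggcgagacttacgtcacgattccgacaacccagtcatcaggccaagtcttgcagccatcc
Psma1: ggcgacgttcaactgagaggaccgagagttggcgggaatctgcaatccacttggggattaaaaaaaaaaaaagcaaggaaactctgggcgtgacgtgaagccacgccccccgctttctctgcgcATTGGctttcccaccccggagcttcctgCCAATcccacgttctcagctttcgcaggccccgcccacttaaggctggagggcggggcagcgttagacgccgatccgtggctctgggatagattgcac
Psmb5: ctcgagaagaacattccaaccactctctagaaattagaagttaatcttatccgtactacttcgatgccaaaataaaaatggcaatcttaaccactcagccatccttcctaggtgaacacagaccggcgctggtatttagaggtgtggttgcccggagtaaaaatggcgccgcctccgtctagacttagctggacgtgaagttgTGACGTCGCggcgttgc
Psmb6: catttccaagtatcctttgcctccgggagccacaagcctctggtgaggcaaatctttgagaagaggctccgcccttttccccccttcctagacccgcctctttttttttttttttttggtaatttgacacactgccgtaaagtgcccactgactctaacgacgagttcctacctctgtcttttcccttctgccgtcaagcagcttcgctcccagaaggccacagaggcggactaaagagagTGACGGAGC

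The Nfe2l1 promoter held 4 CCAAT boxes, all in the reverse orientation, the nearest ending 40 bases before the start. Psma1 held 1 in each orientation, ending 94 and 122 bases before the start. The response element core read TGACGTCGC in Psmb5 and TGACGGAGC in Psmb6. None of the capitalised motifs matched in the Psma5 window. Over the whole RefSeq window, 250 bases before to 50 after the start, and both strands, TGACNNNGC was found in 7 of 42 genes (16.7%). These were Adrm1, Psmb5, Psmb6, Psmc6, Psmd12, Psmd9 and Psme4, and the share was 14.0% over all 27025 genes with a promoter and 17.1% over the 7963 of them that were tested. The CCAAT box was found in 15 of 42 (35.7%), against 41.1% of all genes and 42.8% of tested genes. The ETS-type site CCGGAAG, where factors of broadly expressed genes bind, was found in 16 of 42 (38.1%), against 9.93% of all genes and 21.1% of tested genes. The GC box GGGCGG was found in 26 of 42 (61.9%), against 38.2% and 68.4%. The interferon-response pattern, TTTC followed by any pair of bases and TTTC again, was found in 5 of 42 (11.9%), against 3.99% and 3.78%. Its carriers were Psmb3, Psmd4, Psmd9, Psme1 and Psmg4, and none is an immunosubunit. The 26 constitutive subunits with a promoter held the response element core in 5 cases and the ETS-type site in 11, and the 16 other genes held them in 2 and 5. Matches of different motifs may overlap and were counted separately. A match is a run of letters and no evidence of binding.

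Nfe2l1 and all 32 listed constitutive subunits of the core and the cap were higher in both JIB-04 livers than in both untreated livers. The 32 constitutive subunits stood a median of 1.35-fold above their untreated level, and the 16 immunosubunits, activators, inhibitor and assembly factors a median of 1.12-fold. Summed over the 49 genes, the level was 1421 and 1618 FPKM in JIB-04 1 and 2, against 1143 and 1176 FPKM in untreated 1 and 2. The groups did not overlap, and the sums were 1519 ± 139 FPKM in JIB-04 and 1160 ± 23.4 FPKM in untreated livers (SD, n = 2 each), a ratio of 1.31. In these bulk samples, more RNA per cell and a larger share of cells rich in it cannot be told apart. Across the 49, both JIB-04 libraries exceeded both untreated libraries in 38 genes, where 24.6% of all tested genes did so. Both lay below in 2 genes, Psmb8 and Psmg3, against 21.8% of tested genes, and the remaining 9 overlapped. A log2 change above 0 was seen in 45 of 49, against 51.4% of tested genes, and the median log2 change was 0.35 for the 49 and 0.01 for all genes tested. Log2 changes are taken after adding 1 to each FPKM value, so those of low genes come out smaller than the ratio of FPKM.

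The test was limma on all 10819 genes, with Benjamini-Hochberg adjustment and a threshold of 0.05. It called 1 of the 49 genes, Nfe2l1, as higher, where 1.53% of tested genes were called higher and 2.14% were called in either direction. At an unadjusted p under 0.05, 30 of the 49 were higher, against 9.06% of tested genes, and 1 was lower, against 6.47%. With 2 libraries a group the test has little room, and its calls depend on the setting. Voom on the recovered reads called 8 of the 49 higher, with 3.06% of tested genes called higher: Psma1, Psma5, Psma7, Psmb7, Psmc3, Psmd2, Psmd14 and Nfe2l1.

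**Figure D1:**
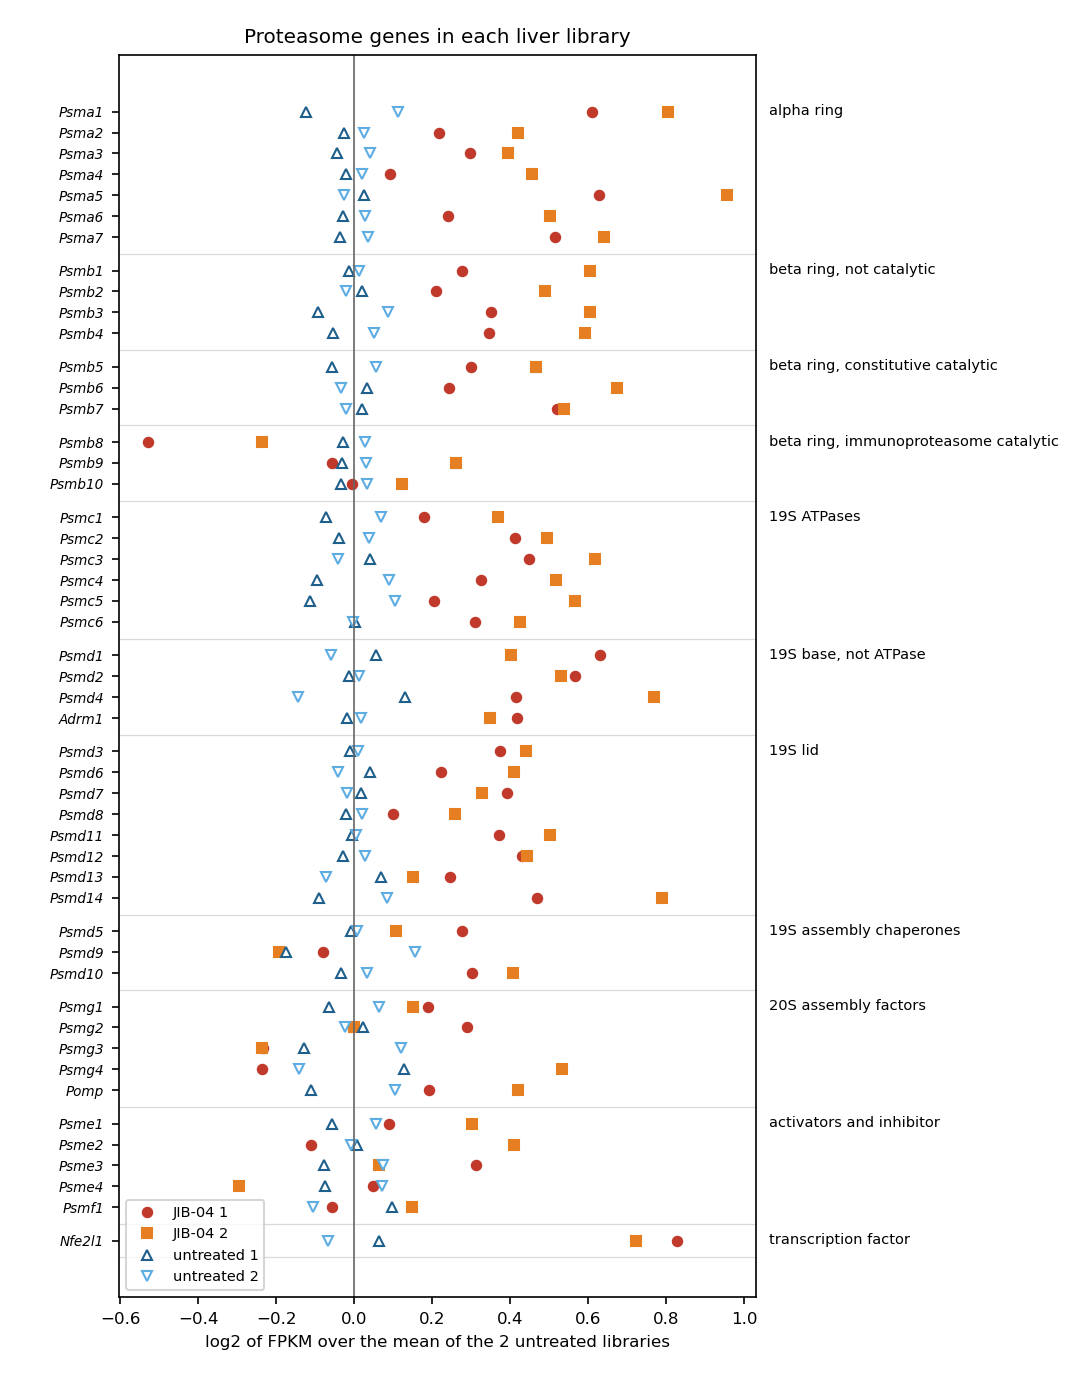
Level of each of the 49 genes in each liver library, as log2 of its FPKM over the mean of the 2 untreated libraries, with genes grouped by subcomplex. Filled symbols are JIB-04 libraries and open triangles untreated libraries. Filled symbols lie right of both triangles in all 32 constitutive subunits shown, of the alpha ring, beta ring, ATPases, base and lid. The groups overlap or the JIB-04 libraries are lower in 11 of the 16 other subunits and factors.

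Nfe2l1 (ENSMUSG00000038615, GRCm39 chr11:96708240-96720794) was at 40.3 and 37.5 FPKM in JIB-04 1 and 2, against 23.7 and 21.7 FPKM in untreated 1 and 2. Both JIB-04 libraries stood above both untreated libraries, with a gap larger than the spread within either group. It rose 1.71-fold, to 38.9 ± 2.01 FPKM in JIB-04, against 22.7 ± 1.44 FPKM in untreated livers (SD, n = 2 each), a log2 change of 0.75 (SE 0.12, limma adjusted p = 0.0357). The adjusted p ranged from 0.00449 to 0.225 over 16 alternatives, and the call held in 9 of them. It was lost when any 1 library was left out, with values from 0.0942 to 0.172.

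A list of 13 genes that process Nfe2l1 or belong to related factors (Nfe2l2, Nfe2l3, Keap1 and small Maf partners) gave no call. Of these, 12 were tested: limma called 0, voom called 0, and 3 were higher at an unadjusted p under 0.05, where 9.06% of all tested genes were. Their median log2 change was 0.17. Vcp, the ATPase that pulls Nfe2l1 out of the membrane, was at 34.1 and 34.2 FPKM in JIB-04 livers, against 25.7 and 22.5 FPKM in untreated livers (log2 difference 0.49, limma adjusted p = 0.117). Syvn1, a membrane ubiquitin ligase, was at 11.1 and 13.6 FPKM in JIB-04, against 8.96 and 9.70 FPKM in untreated livers (limma adjusted p = 0.264). Keap1, which holds down the related factor Nfe2l2, was at 10.6 and 9.44 FPKM in JIB-04, against 7.995 and 8.055 FPKM in untreated livers (limma adjusted p = 0.320). In these 3 genes both JIB-04 libraries were above both untreated libraries. Of the 12 tested, 5 showed this and 1 the reverse, against 24.6% and 21.8% of all tested genes. Ddi2, the protease that cuts Nfe2l1, overlapped between groups at 21.6 and 18.5 FPKM in JIB-04, against 20.9 and 18.5 FPKM in untreated livers. Nfe2l2 overlapped too, at 20.1 and 22.9 FPKM in JIB-04, against 19.5 and 22.2 FPKM in untreated livers.

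All 7 alpha-ring subunits, which form the outer rings and gate of the core, were higher in both JIB-04 libraries, with folds of 1.22 to 1.74 and a median log2 difference of 0.37. Their summed level was 325 ± 39.7 FPKM in JIB-04 and 234 ± 6.67 FPKM in untreated livers (SD, n = 2 each). Limma called 0 of 7, with 6 at an unadjusted p under 0.05, and voom called 3. Psma5 had the largest difference of the ring, at 48.1 and 60.3 FPKM in JIB-04, against 31.6 and 30.6 FPKM in untreated livers. This is a log2 difference of 0.77 (SE 0.14, limma adjusted p = 0.0523), and the call was made under 6 of 16 alternatives. Psma1 was at 31.0 and 35.5 FPKM in JIB-04, against 18.7 and 22.0 FPKM in untreated livers, a log2 difference of 0.69 (SE 0.14, limma adjusted p = 0.0629). Psma4 had the smallest, at 49.01 and 63.1 FPKM in JIB-04, against 45.4 and 46.6 FPKM in untreated livers (limma adjusted p = 0.477). In Psma4, JIB-04 1 lay only just above the untreated libraries, and the difference rests mostly on JIB-04 2. Psma7 was at 40.4 and 44.0 FPKM in JIB-04, against 27.5 and 28.9 FPKM in untreated livers. Psma6, with the highest FPKM of the ring, was at 86.6 and 104 FPKM in JIB-04, against 71.8 and 74.7 FPKM in untreated livers. The other members, Psma2 and Psma3, differed by 1.25-fold and 1.27-fold.

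The 4 beta-ring subunits without an active site, Psmb1, Psmb2, Psmb3 and Psmb4, were also higher in both JIB-04 libraries, by 1.28-fold to 1.40-fold. Psmb3 had the largest log2 difference, 0.47 (limma adjusted p = 0.170), at 36.4 and 43.3 FPKM in JIB-04, against 26.7 and 30.3 FPKM in untreated livers. Psmb2 had the smallest, 0.34 (limma adjusted p = 0.298), at 38.9 and 47.2 FPKM in JIB-04, against 34.1 and 33.2 FPKM in untreated livers. Psmb4, among the genes of the complex with the highest FPKM, was at 82.0 and 97.3 FPKM in JIB-04, against 62.2 and 66.9 FPKM in untreated livers. The 4 together stood at 211 ± 27.8 FPKM in JIB-04 and 155 ± 5.49 FPKM in untreated livers (SD, n = 2 each). None was called by limma or voom, and all 4 had an unadjusted p under 0.05.

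The 3 constitutive active-site subunits were higher and the 3 immunosubunits were not. Psmb5, the chymotrypsin-like subunit, was at 33.2 and 37.3 FPKM in JIB-04, against 25.9 and 28.0 FPKM in untreated livers (1.31-fold). Psmb6, the caspase-like subunit, was at 64.4 and 86.7 FPKM in JIB-04, against 55.6 and 53.1 FPKM in untreated livers (1.39-fold). Psmb7, the trypsin-like subunit, was at 23.0 and 23.3 FPKM in JIB-04, against 16.3 and 15.8 FPKM in untreated livers (1.44-fold). No constitutive catalytic gene overlapped between groups, and Psmb7 had libraries that agreed most closely within each group. The log2 differences were 0.37, 0.45 and 0.50 for Psmb5, Psmb6 and Psmb7, with limma adjusted p = 0.215, 0.249 and 0.0853. Limma called 0 of 3, all 3 had an unadjusted p under 0.05, and voom called 1, Psmb7.

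Psmb8, the immunosubunit that replaces Psmb5 (ENSMUSG00000024338, GRCm39 chr17:34416695-34420428), was at 7.84 and 9.60 FPKM in JIB-04, against 11.1 and 11.5 FPKM in untreated livers. Both JIB-04 libraries lay below both untreated ones, 8.72 ± 1.25 FPKM in JIB-04 and 11.3 ± 0.313 FPKM in untreated livers (SD, n = 2 each), a log2 difference of -0.35 (SE 0.13, limma adjusted p = 0.282). Psmb9, which replaces Psmb6 and lies beside Psmb8, with 9957 bases between them, was at 5.05 and 6.29 FPKM in JIB-04, against 5.14 and 5.36 FPKM in untreated livers. Psmb10, which replaces Psmb7 and lies on chromosome 8, was at 28.9 and 31.6 FPKM in JIB-04, against 28.3 and 29.7 FPKM in untreated livers. The groups overlapped in Psmb9 and Psmb10, whose limma adjusted p = 0.835 and 0.886. Such p-values do not show that the levels were the same, and the sign for Psmb10 turned under quantile normalization. Limma and voom called none of the 3 immunosubunits, and 1, Psmb8, had an unadjusted p under 0.05 and was the lower one.

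As a share of the FPKM of all 6 active-site genes, the immunosubunits held 25.7% and 24.4% in JIB-04 1 and 2, against 31.3% and 32.4% in untreated 1 and 2. The shares did not overlap and differed by -6.83 percentage points, 25.1 ± 0.968% in JIB-04 and 31.9 ± 0.796% in untreated livers (SD, n = 2 each). Pair by pair, Psmb8 held 19.1% and 20.5% of the Psmb8 and Psmb5 total in JIB-04, against 29.98% and 29.1% in untreated livers. Psmb9 held 7.27% and 6.76% of its pair with Psmb6 in JIB-04, against 8.47% and 9.16% in untreated livers. Psmb10 held 55.7% and 57.6% of its pair with Psmb7 in JIB-04, against 63.6% and 65.3% in untreated livers. Every JIB-04 share was below every untreated share in all 3 pairs, and an exact permutation test of 2 against 2 libraries cannot go below p = 0.333. Psmb9 and Psmb10 themselves overlapped between groups, so their lower shares reflect the higher levels of Psmb6 and Psmb7. All 6 genes come from the set selected on this contrast, so the shares are no separate support. The size of each share rests on the listed gene lengths, from 899 bases in Psmb5 to 3660 in Psmb9. Psmb5 also shares 36.8% of its 75-base stretches with other transcripts. The shares are therefore uncertain as proportions of transcripts.

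**Figure D2:**
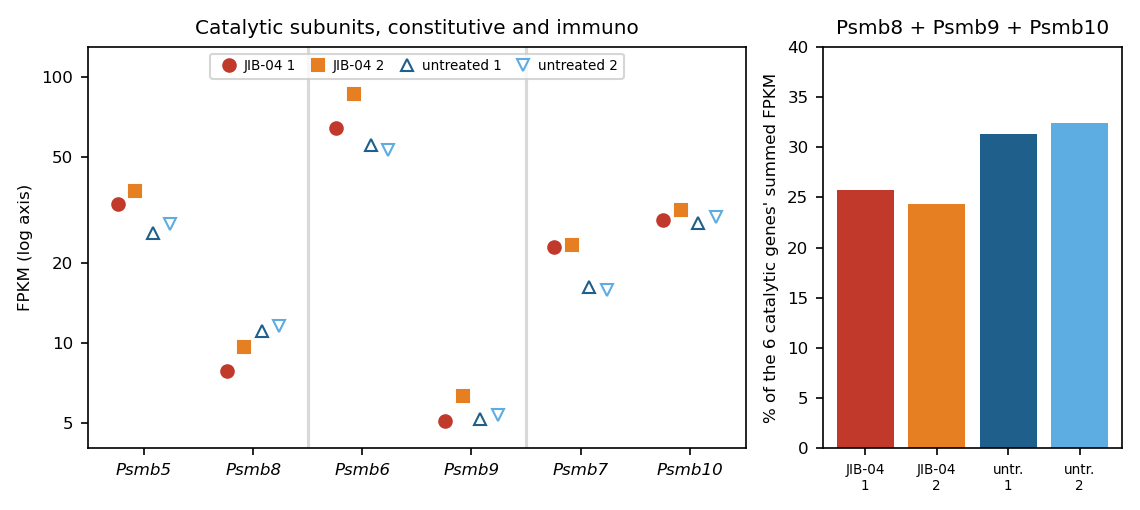
Left, FPKM on a log axis of the constitutive active-site genes Psmb5, Psmb6 and Psmb7, each beside the immunosubunit that replaces it, in JIB-04 1, JIB-04 2, untreated 1 and untreated 2 (one symbol each). Right, summed Psmb8, Psmb9 and Psmb10 as a percentage of the 6 genes, with untr. for untreated. The bars stand at 25.7% and 24.4% in JIB-04 and 31.3% and 32.4% in untreated livers.

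The listed subunits of the 19S cap were higher as well. All 6 ATPases of the base, which unfold substrates and open the gate, were higher in both JIB-04 libraries, with folds of 1.21 to 1.45 and a median log2 difference of 0.40. Psmc2, Psmc4, Psmc5 and Psmc6 lay between the other two, Psmc3 and Psmc1. Psmc3 had the largest difference, at 46.6 and 52.4 FPKM in JIB-04, against 35.1 and 33.1 FPKM in untreated livers (log2 0.52, limma adjusted p = 0.102). Psmc1 had the smallest, at 52.3 and 59.7 FPKM in JIB-04, against 43.9 and 48.4 FPKM in untreated livers (log2 0.27, limma adjusted p = 0.397). The ATPases summed to 242 ± 24.2 FPKM in JIB-04 and 183 ± 8.94 FPKM in untreated livers (SD, n = 2 each). Limma called 0 of 6, 5 had an unadjusted p under 0.05, and voom called 1, Psmc3.

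Of the 4 other base subunits, Psmd1, Psmd2, Psmd4 and Adrm1, which scaffold the base or bind ubiquitin, all were higher in both JIB-04 libraries and their median log2 difference was 0.51. Psmd4, a ubiquitin receptor, was at 30.2 and 38.6 FPKM in JIB-04, against 24.8 and 20.5 FPKM in untreated livers (1.52-fold, limma adjusted p = 0.149). Adrm1, another ubiquitin receptor, was at 19.5 and 18.6 FPKM in JIB-04, against 14.4 and 14.8 FPKM in untreated livers (1.30-fold, limma adjusted p = 0.189). Psmd2, a large scaffold, was at 45.1 and 44.0 FPKM in JIB-04, against 30.2 and 30.7 FPKM in untreated livers (1.46-fold, limma adjusted p = 0.0738). Psmd2 and Adrm1 showed little spread within groups, whereas Psmd4 spread more widely in both. Limma called 0 of 4, all 4 had an unadjusted p under 0.05, and voom called 1, Psmd2.

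All 8 listed lid subunits were higher in both JIB-04 libraries, with folds from 1.13 in Psmd8 to 1.56 in Psmd14. Sem1, a small lid subunit counted below with the proteasome-bound factors, overlapped between groups. It was at 9.23 and 11.3 FPKM in JIB-04, against 10.5 and 9.13 FPKM in untreated livers (limma adjusted p = 0.913). Psmd14, the enzyme that cuts ubiquitin from substrates, was at 17.2 and 21.5 FPKM in JIB-04, against 11.7 and 13.2 FPKM in untreated livers (log2 0.59, SE 0.15, limma adjusted p = 0.1101). Psmd8, a lid subunit, was at 33.6 and 37.5 FPKM in JIB-04, against 30.8 and 31.8 FPKM in untreated livers (log2 0.18, limma adjusted p = 0.577). The 8 listed subunits together stood at 208 ± 8.18 FPKM in JIB-04 and 163 ± 0.02 FPKM in untreated livers (SD, n = 2 each). Limma called 0 of 8, 6 had an unadjusted p under 0.05, and voom called 1, Psmd14. Psmd3, Psmd6, Psmd11, Psmd12 and Psmd13 differed by 1.15-fold to 1.35-fold. Psmd7, which pairs with Psmd14, was at 36.6 and 35.0 FPKM in JIB-04, against 28.2 and 27.5 FPKM in untreated livers.

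The 14 constitutive core subunits and the 18 listed cap subunits made 32 genes. They summed to 1231 ± 122 FPKM in JIB-04 and 909 ± 17.6 FPKM in untreated livers (SD, n = 2 each). The ratio of sums was 1.35, the median log2 difference 0.41, and 30 of 32 had a fold between 1.2 and 2. The median log2 difference was 0.44 in the core and 0.40 in the cap. The ratio of summed ATPase to summed alpha-ring FPKM was 0.756 and 0.732 in JIB-04, against 0.770 and 0.793 in untreated livers.

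**Figure D3:**
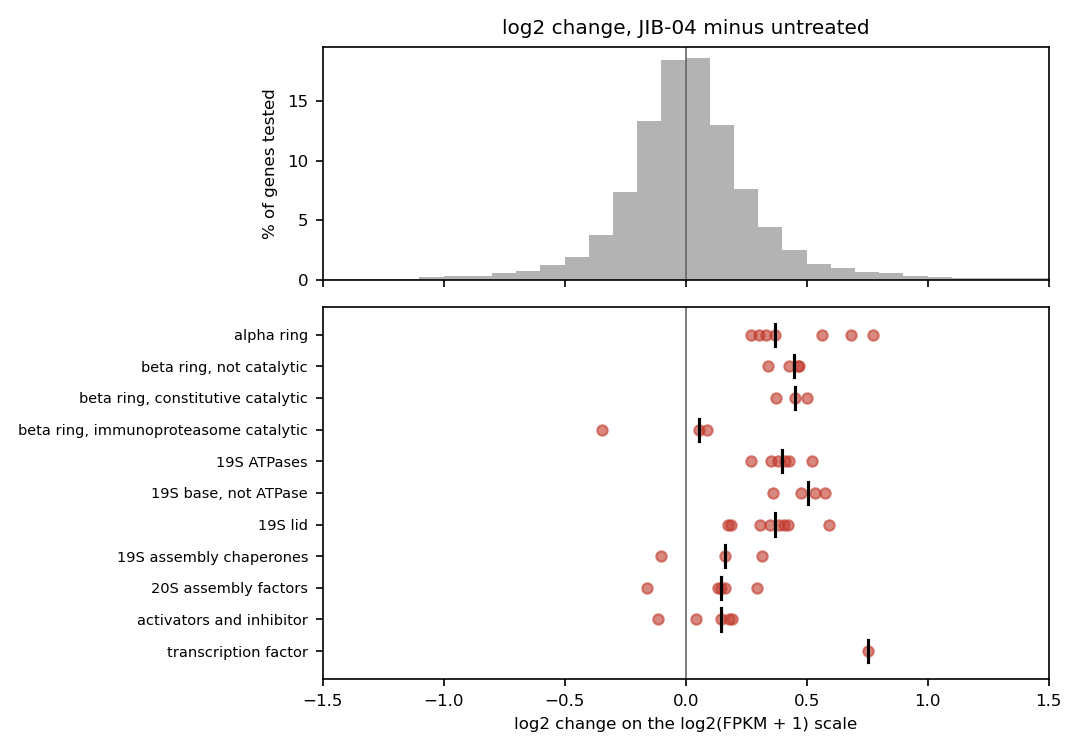
Top, histogram of the log2 change, JIB-04 minus untreated, of all tested genes that fall within the axis, as a percentage of genes tested. Below, the change of each of the 49 genes by subcomplex (circles) with the median of each (bars). The medians of the core and cap groups lie from 0.37 to 0.51, those of immunosubunits, assembly factors and activators from 0.06 to 0.16, and Nfe2l1 lies at 0.75.

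The assembly factors had medians of 0.16 on the log2 scale for the chaperones of the base and 0.15 for those of the core. Leaving out 1 library moved the base chaperones to between 0.091, without JIB-04 1, and 0.24, without JIB-04 2. Of 3 chaperones of the base, Psmd10 was at 8.18 and 8.79 FPKM in JIB-04, against 6.48 and 6.78 FPKM in untreated livers (limma adjusted p = 0.264). Psmd9 was at 3.53 and 3.26 FPKM in JIB-04, against 3.31 and 4.15 FPKM in untreated livers, and the groups overlapped. Psmd5 was at 6.35 and 5.65 FPKM in JIB-04, against 5.22 and 5.27 FPKM in untreated livers, higher in both libraries with limma adjusted p = 0.6002. Among the 5 factors that assemble the core, Pomp, which helps the beta ring mature, was at 20.6 and 24.2 FPKM in JIB-04, against 16.7 and 19.4 FPKM in untreated livers (1.24-fold, limma adjusted p = 0.385). Psmg3, an alpha-ring chaperone and the least abundant gene of the 49, was at 2.00 and 2.00 FPKM in JIB-04, against 2.15 and 2.55 FPKM in untreated livers. Pomp and Psmg1 were higher in both JIB-04 libraries, Psmg3 was lower in both, and Psmg2 and Psmg4 overlapped. Psmg4 was at 9.96 and 17.0 FPKM in JIB-04, against 12.8 and 10.6 FPKM in untreated livers, the widest spread of the 5. Limma and voom called 0 of these 8 genes, and 1, Psmd10, had an unadjusted p under 0.05.

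The activators, which cap the core in place of the 19S particle, and the inhibitor had a median log2 difference of 0.15, which was 0.046 without JIB-04 2. Psme1, 1 of the 2 kinds of subunit of the interferon-inducible cap PA28, was at 43.8 and 50.8 FPKM in JIB-04, against 39.6 and 42.8 FPKM in untreated livers (limma adjusted p = 0.568). Its partner Psme2, whose gene lies 5912 bases away on chromosome 14, was at 29.3 and 42.0 FPKM in JIB-04, against 31.8 and 31.5 FPKM in untreated livers, overlapping. Psme4, a nuclear activator, was at 15.2 and 12.0 FPKM in JIB-04, against 13.9 and 15.4 FPKM in untreated livers, and Psme3 and the inhibitor Psmf1 overlapped too. Limma and voom called 0 of these 5 genes, and 0 had an unadjusted p under 0.05. The ratio of summed Psme1 and Psme2 to the alpha ring was 0.246 and 0.263 in JIB-04, against 0.311 and 0.311 in untreated livers, with no overlap and a difference of -0.057. The smallest p an exact permutation test allows here is again 0.333.

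The 2 JIB-04 livers differed from each other more than the untreated ones did in these genes. JIB-04 2 was above JIB-04 1 in 36 of 49 genes, against 49.3% of all tested genes. It was above in all 14 constitutive core subunits and in 6 of 6 ATPases, but in 1 of 4 other base subunits. The median log2 over the untreated mean was 0.29 in JIB-04 1 and 0.42 in JIB-04 2, against -0.03 in untreated 1 and 0.03 in untreated 2. The median absolute log2 gap between the libraries of a group was 0.193 in JIB-04 and 0.077 in untreated livers for the 49 genes, against 0.159 and 0.130 for all tested genes. Untreated 2 was above untreated 1 in 33 of 49, against 49.8% of all tested genes.

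Other lists of the ubiquitin system gave no call by limma or voom. Of the 15 proteasome-bound factors and shuttles tested, 2 were higher at an unadjusted p under 0.05, a count near the 9.06% of all tested genes. Usp14, a deubiquitinase that binds the cap, was at 5.19 and 5.17 FPKM in JIB-04, against 3.11 and 3.93 FPKM in untreated livers (limma adjusted p = 0.169). Txnl1, a thioredoxin-like protein of the cap, was at 16.5 and 16.9 FPKM in JIB-04, against 13.6 and 13.7 FPKM in untreated livers (limma adjusted p = 0.318). Both had JIB-04 libraries above both untreated ones, and the median log2 difference of the list was 0.07. Over the list, 7 of the 15 lay above in this way and 0 below, against 24.6% and 21.8% of all tested genes. Of 9 ubiquitin and ubiquitin-activating or conjugating genes, 0 had an unadjusted p under 0.05 and the median was 0.20. Both JIB-04 libraries were above both untreated libraries in 5 of the 9 and below them in 1. Ubb, a polyubiquitin gene, was at 194 and 239 FPKM in JIB-04, against 188 and 141 FPKM in untreated livers (limma adjusted p = 0.378).

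Interferon and class I antigen-processing genes, the programme known to induce immunosubunits, had a median log2 difference of 0.03 over 19 genes. Limma and voom called 0, and 3 were higher at an unadjusted p under 0.05, against 9.06% of all tested genes. Both JIB-04 libraries were above both untreated libraries in 6 of the 19 and below them in 3, Irf1, Nlrc5 and H2-D1, near the shares of 24.6% and 21.8% over all tested genes. Isg15 was at 27.1 and 29.2 FPKM in JIB-04, against 20.1 and 19.2 FPKM in untreated livers (limma adjusted p = 0.101). Irf7, an interferon regulator, was at 31.1 and 34.1 FPKM in JIB-04, against 25.8 and 25.3 FPKM in untreated livers (limma adjusted p = 0.238). Ifit1, an interferon-induced gene, was at 8.62 and 10.3 FPKM in JIB-04, against 6.81 and 7.57 FPKM in untreated livers (limma adjusted p = 0.280). Isg15, Irf7 and Ifit1 are among the 6. Tap1, a peptide transporter whose gene lies beside Psmb8 and Psmb9, overlapped at 3.95 and 4.32 FPKM in JIB-04, against 4.83 and 3.998 FPKM in untreated livers.

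The tissue carried liver markers throughout. Albumin (Alb) took 7.35% and 5.40% of reads in JIB-04, against 10.9% and 11.2% in untreated livers, and all 6 hepatocyte markers had a log2 difference below 0, though 0 were called. FPKM is relative to the whole library. After rescaling without the 50 most abundant and the mitochondrial genes, the median log2 change was 0.30 for the 49 and -0.045 for all genes tested. Before rescaling these medians were 0.35 and 0.01. Macrophage markers, whose cells can carry immunosubunits, summed to 246 and 300 FPKM in JIB-04, against 322 and 271 FPKM in untreated livers; 7 of 8 had a log2 difference below 0, and 0 were called. Endothelial markers summed to 65.2 and 68.7 FPKM in JIB-04, against 81.8 and 63.1 FPKM in untreated livers, and limma and voom called none of them. Stellate markers summed to 11.5 and 12.2 FPKM in JIB-04, against 14.9 and 12.6 FPKM in untreated livers. Limma called 0 of the 4 tested and voom called 1 lower, Lrat, at 3.10 and 3.03 FPKM in JIB-04, against 5.35 and 5.15 FPKM in untreated livers (limma adjusted p = 0.0549, called in 2 of 15 alternatives). Cholangiocyte markers, with 1 tested, gave no call. Of the leukocyte markers, Cd3e, Ms4a1 and Ncr1 were listed at 0 in all 4 libraries. The 6 neutrophil markers summed to 44.4 and 71.7 FPKM in JIB-04, against 26.6 and 7.41 FPKM in untreated livers, and did not move together. S100a8 was at 36.3 and 63.0 FPKM in JIB-04, against 6.68 and 2.40 FPKM in untreated livers (limma adjusted p = 0.131). S100a9 was at 7.51 and 8.45 FPKM in JIB-04, against 18.7 and 4.01 FPKM in untreated livers, overlapping, and Ngp, Camp, Ly6g and Elane were below 1 FPKM in every library. The part of these markers in the proteasome differences was not tested.

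Some genes share sequence with copies elsewhere, and how shared reads were counted is not stated in the sources used here. Psmb5 shares 36.8% of its 75-base stretches with other transcripts, among them the pseudogene Gm3375. Gm3375 was at 54.8 and 58.9 FPKM in JIB-04, against 38.6 and 39.7 FPKM in untreated livers, so it differed in the same direction as Psmb5. Psma5 shares 35.2% with copies that include Gm12989, Psmd9 shares 24.3% and Adrm1 23.6%. Psma3 shares 14.4% with copies that include Gm13835, which was at 59.0 and 73.1 FPKM in JIB-04, against 51.4 and 48.7 FPKM in untreated livers, above Psma3 itself. Psme2 shares 22.9% with Psme2b, which was at 38.6 and 34.4 FPKM in JIB-04, against 35.5 and 35.4 FPKM in untreated livers. Values of Psmb5, Psma5, Psmd9, Adrm1, Psme2 and Psma3 are uncertain for that reason. The other genes share 10.3% or less, the highest being Psmb3. Nfe2l1 and Psma1 share no such stretch.

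**Figure D4:**
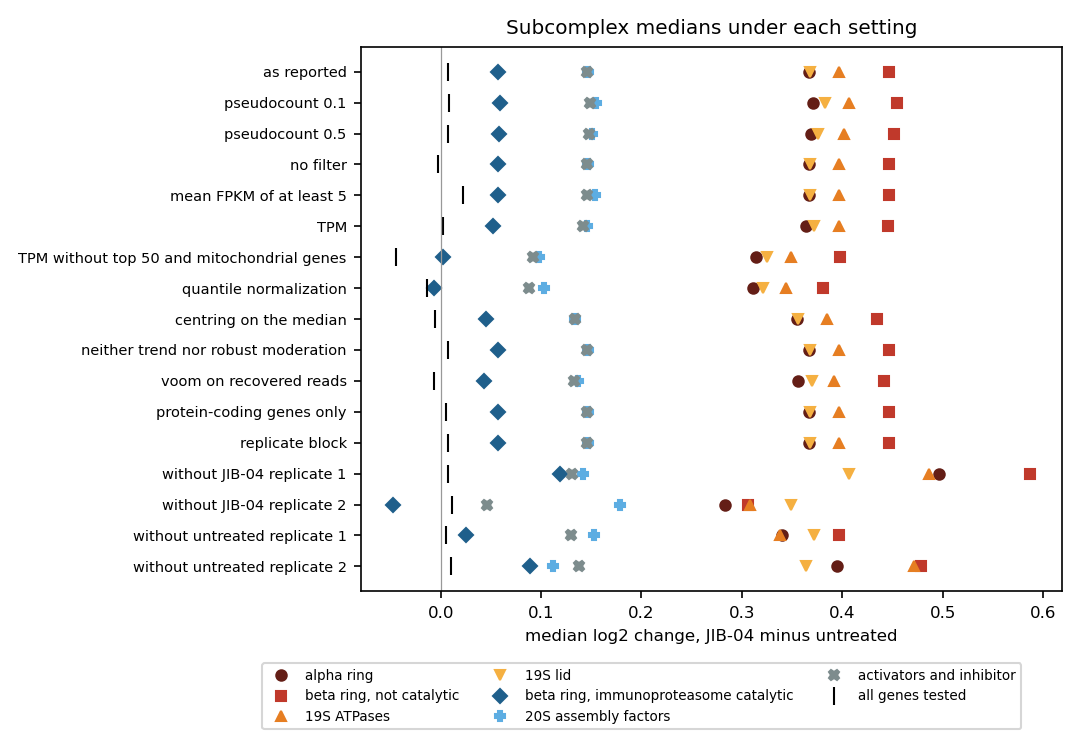
Median log2 change, JIB-04 minus untreated, of 7 subcomplexes and of all tested genes under the reported setting and 16 alternatives, one per row. Core and cap medians stay at or above 0.28, and immunosubunit medians lie from -0.05 to 0.12.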

How the data were processed

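Liver RNA was extracted with Trizol and sequenced from standard libraries, per the labels' protocols. The authors deposited gene-level FPKM values with gene lengths. The submitters' processing notes name build GRCm39 (mm39). Aligner, counter, annotation release and strandedness were not given in the sources used here. FPKM times length gave whole reads for 100% of values (tolerance 0.01), used only for voom and depth.

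The 49 genes and all lists were chosen with earlier results of these data known. Differences were fitted with limma 3.58.1 (R 4.3.3; trend and robust moderation) on log2(FPKM + 1), over the 10819 genes with a mean of at least 1 FPKM, and p-values were adjusted by Benjamini-Hochberg over all of them. The fit was also run on simulated data, where recovery was required only for planted changes larger than any of the 49 genes. Recovery at the sizes seen here is not reported. With 2 libraries a group, 2 residual degrees of freedom remain before moderation. Named genes were the called gene, the 6 catalytic subunits, Psme1, Psme2, Pomp, Nfe2l1 and the highest and lowest change of each subcomplex. The other genes were named after their values were seen. Intervals from reads were not computed. Paaf1 was not analysed here.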

Additional observations from a re-analysis of the deposited data

How the results depend on the processing

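Over all genes tested, 232 were called, against 20 with no filter, 545 with voom, 397 with protein-coding genes only, 357 with the replicate block, and 23 to 156 without 1 library. Of the 49 genes, 1 was called, against 0 with no filter, 0 with quantile normalization, 0 with neither trend nor robust moderation, 3 at a mean of at least 5 FPKM, 2 with TPM, 2 with TPM without the top 50 and mitochondrial genes, 8 with voom, 6 with protein-coding genes only, and 0 without any 1 library. With 2 libraries a group, these counts say little about stability. Same-numbered libraries correlated at -0.05 in their deviations from the group means over 10819 genes. With 2 libraries a group, this value cannot decide whether equal numbers pair the animals. With the replicate block 3 of the 49 were called (Psma1, Psma5 and Nfe2l1).

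The median over the 49 was 0.27 to 0.41 without 1 library, the lowest without JIB-04 2. Leave-one-out medians were 0.28 to 0.50 for the alpha ring, 0.29 to 0.51 for constitutive catalytic genes, -0.047 to 0.12 for immunosubunits, 0.091 to 0.24 for base chaperones, 0.43 to 0.53 for the other base subunits, 0.35 to 0.41 for the lid, and 0.046 to 0.14 for activators and inhibitor. Base medians were 0.47 with TPM without the top 50 and mitochondrial genes and 0.46 with quantile normalization, and lid medians 0.32 in both. The sign of Psmb10 turned with quantile normalization (-0.0067). Signs of single genes were examined only for those named by rule, so other genes of the 49 may turn as well. Among the genes examined, signs turned without 1 library in ranges of -0.0046 to 0.12 for Psmb10, -0.047 to 0.22 for Psmb9, -0.11 to 0.40 for Psme2 and -0.27 to 0.046 for Psme4, each where JIB-04 2 was left out, and -0.23 to 0.029 for Psmd9, where untreated 2 was. The cause was not tested. The immunosubunit share differed by -7.51 to -6.14 percentage points without 1 library. Since its groups did not overlap, leaving out 1 library could not turn its sign.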
